A study of Mus musculus with 24 samples.

Results

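Hox genes encode homeodomain transcription factors and lie in 4 chromosomal clusters, A to D. The 38 listed Hox genes were described here in pre-granulosa cells and Sertoli cells of the mouse fetal gonad, out of 32040 genes in the deposited tables. The rule names the members as genes of a Hox cluster and uses no measured value. Clusters A and B gave 10 members each, and clusters C and D gave 9 each.

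RNA was sequenced from sorted cells of fetal gonads at E11.5 (E for embryonic day) and at E12.5, E13.5 and, last, E15.5, with 3 libraries for each sex and stage and 24 in all. The XX cells, labelled as pre-granulosa cells, came from the Tg(Enh8-mCherry) mouse line, and the XY cells, labelled as Sertoli cells, came from the SOX9-IRES-GFP line. Each library held RNA of about 40000 sorted cells, and the labels do not say whether the 3 libraries of a group came from separate litters or pools, so the p-values measure the spread between these libraries, which may be technical. Sex and mouse line cannot be told apart in this design, and the XY reporter follows Sox9, so the sort itself selected cells by that gene. The labels do not name the cells in which the Enh8 sequence is active, and in bulk RNA a smaller number of cells of a type and less RNA per cell cannot be told apart.

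Within a Hox cluster, genes are numbered by paralog group from 1 to 13 according to sequence and position. In the embryo the low-numbered genes act in anterior regions and the high-numbered genes in posterior regions, and neighbouring genes of a cluster often share regulatory DNA. Hox proteins bind DNA together with cofactors of the TALE homeodomain class, the Pbx, Meis and Pknox proteins, and in the urogenital system posterior paralogs pattern the kidney, the reproductive ducts and the gonad region.

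On mouse build GRCm38, cluster A spans chr6:52162417-52260880 on the minus strand. Cluster B spans chr11:96194316-96368256, cluster C spans chr15:102921103-103036852 and cluster D spans chr2:74668310-74765142, all on the plus strand. In the GENCODE annotation all 38 members were found as protein-coding genes. Exons of 9 members overlap exons of another gene in the tables, and 4 of these overlap another member, Hoxc5 with Hoxc10 and Hoxd3 with Hoxd4. Among genes of the tables, antisense transcripts overlap Hoxa3 (Hoxaas2 and Hoxaas3), Hoxa7 (Hoxaas3), Hoxa11 (Hoxa11os) and Hoxb5 (Hoxb5os). Of other genes of the annotation, antisense Hoxb3os covers 52.9% of the exonic bases of Hoxb3 and 27.3% of those of Hoxb2, Hoxd3os1 overlaps Hoxd3 and Hoxd4, and Gm29430 overlaps Hoxa3 and Hoxa4. On the same strand Gm28230 covers 53.1% of Hoxd3 and 39.1% of Hoxd4. How reads were assigned there, and whether strand was used, is not given in the sources used here, so the values of these genes are uncertain by the amount of shared reads.

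The RefSeq promoter table held windows for 22 of the 38 members, 24 windows in all. The 250 bases before the start site are shown for 4 genes that stand for the patterns described below, with none of these bases in an annotated exon of a member. Hoxa5 (chr6:52204588-52204837, minus strand) and Hoxb8 (chr11:96281655-96281904, plus strand) lost most of their RNA after E11.5 in both sexes, while Hoxd8 (chr2:74704365-74704614, plus strand) and Hoxd10 (chr2:74691641-74691890, plus strand) ended higher in XX cells at E15.5 than at E11.5. Sequences are RefSeq's on GRCm38.p6, 5′ to 3′ on the gene's strand, and capitals mark matches to the Cdx motif TTTATG on either strand.
Hoxa5: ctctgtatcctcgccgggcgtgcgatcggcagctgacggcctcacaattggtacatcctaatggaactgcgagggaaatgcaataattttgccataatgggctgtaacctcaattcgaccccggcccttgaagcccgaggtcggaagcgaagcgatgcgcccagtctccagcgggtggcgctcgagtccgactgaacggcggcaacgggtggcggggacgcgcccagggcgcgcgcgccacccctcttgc
Hoxb8: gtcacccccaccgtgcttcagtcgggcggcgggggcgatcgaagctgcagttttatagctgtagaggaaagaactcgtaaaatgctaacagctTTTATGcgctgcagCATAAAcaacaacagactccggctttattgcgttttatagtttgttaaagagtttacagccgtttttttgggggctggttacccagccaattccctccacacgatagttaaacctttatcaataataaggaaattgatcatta
Hoxd8: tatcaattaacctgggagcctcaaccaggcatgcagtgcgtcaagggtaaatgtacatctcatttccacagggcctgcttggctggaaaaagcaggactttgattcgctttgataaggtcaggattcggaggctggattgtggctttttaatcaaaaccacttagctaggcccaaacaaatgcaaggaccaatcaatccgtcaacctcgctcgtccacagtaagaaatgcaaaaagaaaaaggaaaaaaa
Hoxd10: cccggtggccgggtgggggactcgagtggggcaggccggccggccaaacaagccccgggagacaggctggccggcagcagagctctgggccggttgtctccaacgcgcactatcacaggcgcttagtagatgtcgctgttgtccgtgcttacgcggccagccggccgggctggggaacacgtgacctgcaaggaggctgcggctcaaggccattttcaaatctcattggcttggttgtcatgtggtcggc

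Matches to 4 short motifs were counted on both strands of these 250-base windows. The Cdx motif TTTATG, named for caudal homeodomain factors that act upstream of Hox genes, was found in windows of 5 of the 24 (Hoxa7, Hoxb8, Hoxd3, Hoxd4 and Hoxd11) and in 10.8% of 32851 promoter windows of the table. The Pbx-Hox motif TGATTNAT was found in 2 of the 24 (Hoxa2 and Hoxd11) and in 2.82% of all windows, and the Meis motif TGACAG in 2 (Hoxa2 and Hoxa3) and in 15.9% of all. The SOX motif AACAAT was found in 0 of the 24 and in 9.42% of all windows. No 2 of these motifs overlapped in the 4 windows printed, where only Hoxb8 held a match, 1 on each strand. A match here describes letters and is neither a binding site nor a cause of the RNA levels. The members' windows held between 2 and 35 CG dinucleotides, and the median over all windows was 6.

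Library totals ran from 11275277 to 37256871 counts, with the 3 XY E11.5 libraries at 35392449 or more and all others at or below 30696507. Of the 38 members, 30 had enough counts to be tested and 8 did not. Amh and Foxl2 matched the labels from E12.5 on. Amh, the hormone of Sertoli cells, was between 3368 and 4659 TPM (transcripts per 1e6 transcripts, a level per gene length) in XY libraries. In XX libraries of those stages it was at most 0.93 TPM. Foxl2, the granulosa transcription factor, was between 7.33 and 19.6 TPM in XX libraries of those stages and at most 0.08 TPM in XY libraries. At E11.5 most of these markers followed the labels and 1 sum did not, which bears on each E11.5 value below. Amh was at 16.9 to 40.6 TPM in XY and 0.32 to 8.07 TPM in XX libraries. Sox9, the Sertoli transcription factor, was at 500.3 to 859 TPM in XY and 27.7 to 91.1 TPM in XX libraries. The summed TPM of 10 Sertoli markers, Sox9 among them, was 1034 to 1909 in XY and 107 to 219 in XX. The XY cells were sorted by a Sox9 reporter, so Sox9 and its part of that sum do not test the XY label. Fst, a pre-granulosa gene, was at 101 to 401 TPM in XX and 2.99 to 6.19 TPM in XY libraries. The summed TPM of 10 pre-granulosa markers was 4904 to 5738 in XY and 2202 to 2658 in XX libraries, so that sum did not follow the labels. At E12.5 that sum was 3859 to 4373 in XX and 3408 to 3578 in XY libraries. By E15.5 it was 2473 to 2756 in XX and 1045 to 1084 in XY libraries. The summed TPM of 10 interstitial and stromal markers was 306, 131 and 720 in the 3 XX E11.5 libraries and 318, 376 and 526 in the 3 XY E11.5 libraries, against 91.9 to 176 in later XX libraries and 33.1 to 78.1 in later XY libraries. The summed TPM of 9 erythroid markers was 36369, 11024 and 88036 in XX E11.5 libraries and 32.0 to 93.1 in XY E11.5 libraries. Xist, the X-inactivation RNA, was at 0.02, 0.71 and 4.25 TPM in the 3 XY E11.5 libraries, so replicate 3 of XY E11.5 stood apart from its label.

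A gene was called where the edgeR quasi-likelihood test gave an adjusted p under 0.05 after Benjamini-Hochberg adjustment over all 16190 genes tested. Counts of called members describe the 30 members that passed the filter on low counts, and a gene that passed only through its high group had to differ, so these counts are read beside the share of all genes called.

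**Figure D1:**
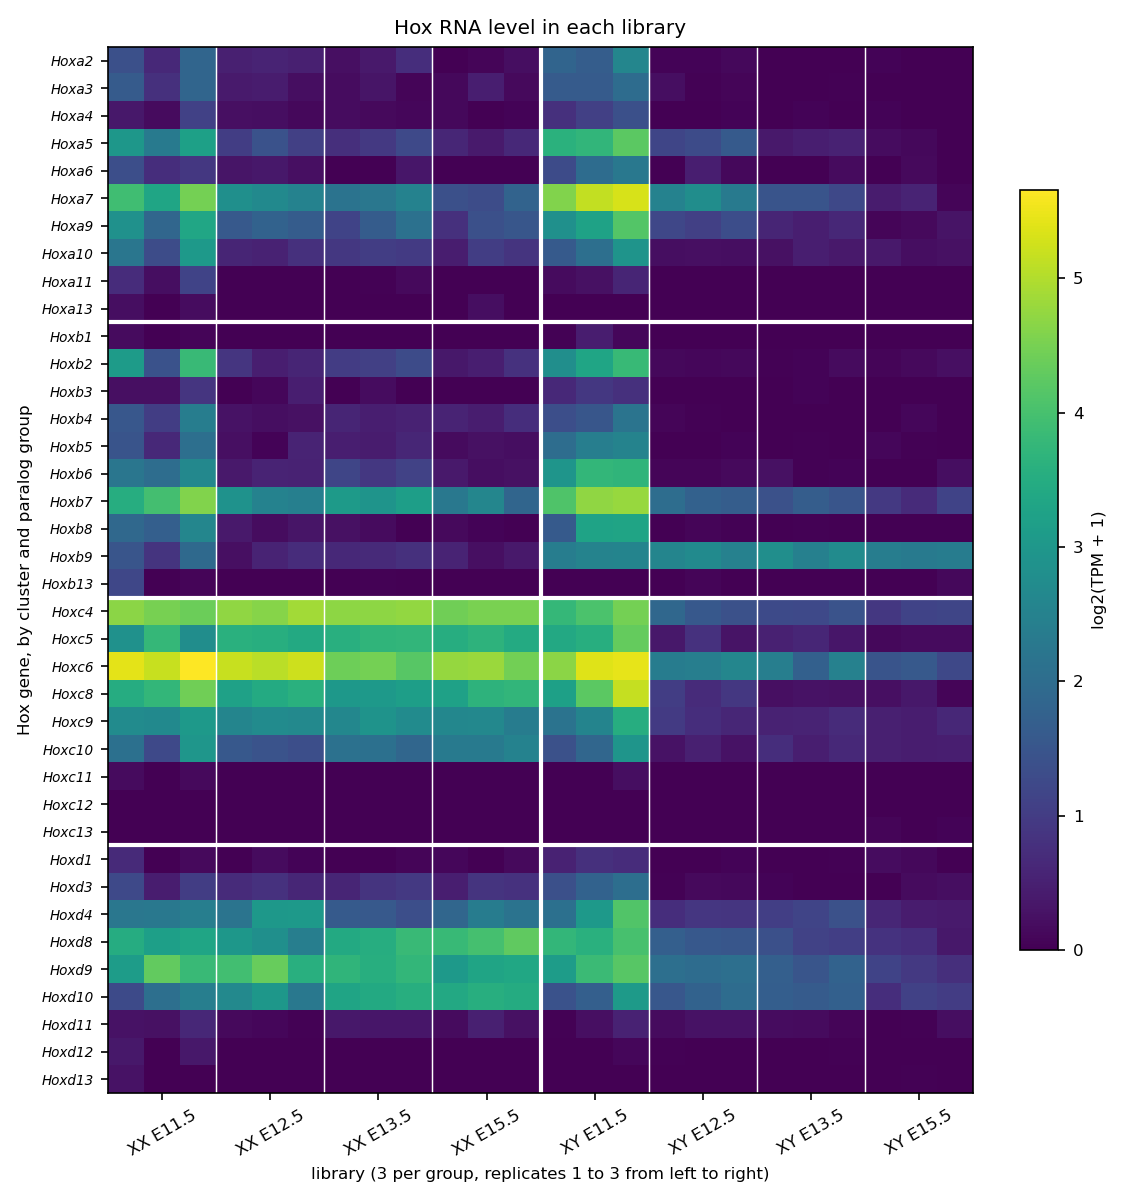
RNA level of the 38 Hox members as log2(TPM + 1), with 1 row per gene in order of cluster and paralog group and 1 column per library, 3 per group of sex and stage. Clusters A and B are brighter at E11.5 than later in both sexes, clusters C and D are brighter in XX than in XY columns after E11.5, and Hoxb9 stays bright in XY columns and darkens in XX columns.

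The number of Hox genes with a mean of at least 1 TPM was close in the sexes at E11.5 and parted later, most at E15.5. Over the 4 stages in order, 24, 14, 16 and 13 members reached that level in XX cells, and 26, 10, 9 and 3 in XY cells. The 3 that did so in XY cells at E15.5 were Hoxb9, Hoxc6 and Hoxc4. A level of at least 10 TPM was reached in XX cells by 6 members at E11.5 and by 6 at E15.5, and in XY cells by 11 at E11.5 and by 0 at each later stage.

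Summed over all members, Hox RNA in XX cells was 187, 167 and 256 TPM in the 3 libraries at E11.5 and 117, 133 and 127 TPM at E15.5, which left 61.7% of the mean. In XY cells the sum was 177, 265 and 364 TPM at E11.5, 33.4, 34.5 and 32.8 TPM at E12.5 and 13.4, 13.3 and 12.7 TPM at E15.5, which left 12.51% of the mean by E12.5 and 4.89% by E15.5. The 2 sexes overlapped at E11.5 and did not overlap at any later stage. Over the 4 stages in order, the mean sum in XX cells was 0.758, 4.13, 5.28 and 9.57 times that in XY cells.

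The 4 clusters parted in XX cells. The summed TPM of cluster A in XX cells was 37.4, 19.4 and 54.9 at E11.5 and 10.8, 11.3 and 9.47 at E12.5. That of cluster B was 31.7, 24.4 and 57.8 at E11.5 and 8.33, 6.42 and 7.30 at E12.5. For both clusters every later XX library was below every XX E11.5 library, and 12.9% of cluster A and 14.6% of cluster B RNA was left at E15.5. Cluster C in XX cells was at 92.4, 89.0 and 110 TPM at E11.5 and at 74.99, 81.5 and 73.8 TPM at E15.5, and cluster D at 25.9, 34.2 and 33.1 TPM and at 33.2, 39.8 and 42.3 TPM. So 79.0% of the cluster C level and 124% of the cluster D level stood at E15.5. The 3 XX E11.5 libraries ranked in the same order for cluster A as for the stromal and erythroid markers, with replicate 3 highest and replicate 2 lowest, and the part of those markers in the cluster A and B levels was not tested.

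In XY cells all 4 clusters were lower at E12.5 than at E11.5. Cluster A was at 49.2, 67.0 and 94.0 TPM at E11.5, at 7.61, 9.0 and 8.03 TPM at E12.5 and at 0.93, 0.92 and 0.48 TPM at E15.5. Cluster C was at 60.2, 92.4 and 135 TPM, then 9.43, 8.77 and 8.57 TPM, then 3.81, 4.30 and 3.77 TPM, and cluster D at 27.2, 37.4 and 60.7 TPM, then 8.18, 8.56 and 9.18 TPM, then 3.30, 3.35 and 2.63 TPM. Cluster B was at 40.4, 67.8 and 74.3 TPM, then 8.16, 8.20 and 7.03 TPM, then 5.34, 4.74 and 5.78 TPM, the highest sum of the 4 at E15.5, where Hoxb9 alone held a mean of 4.13 TPM. Replicate 3 of XY E11.5, which stood apart by Xist, had the highest sum in each cluster, and every XY E12.5 library was below every XY E11.5 library in each cluster. In the same libraries the stromal marker sum was lower after E11.5 as well, at 35.2 to 41.1 TPM at E12.5, and its part in the fall was not tested.

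**Figure D2:**
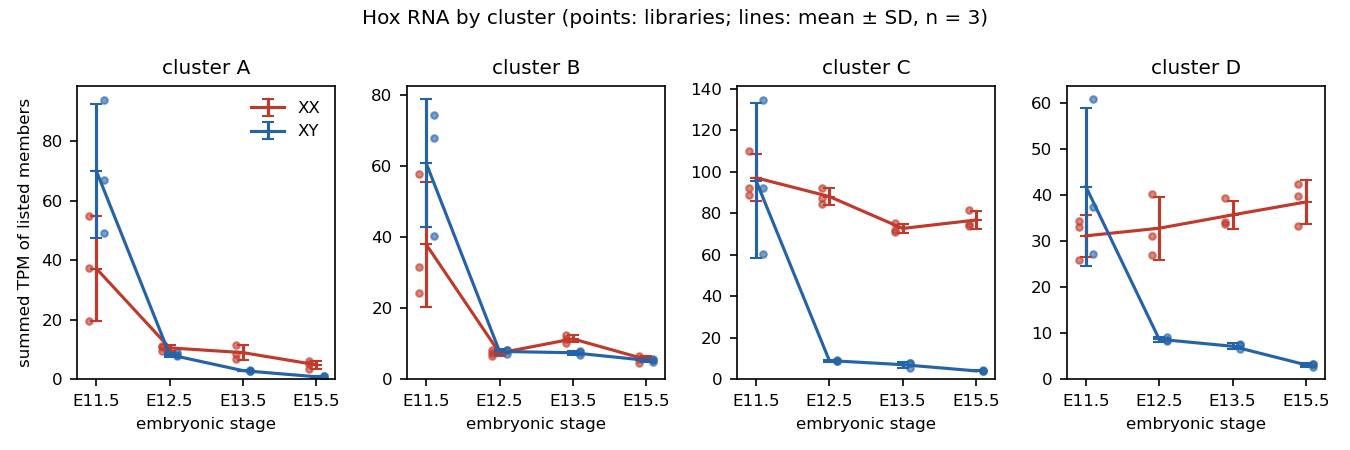
Summed TPM of the listed members of each Hox cluster by stage, in XX cells (red) and XY cells (blue), with points for single libraries and lines for mean ± SD of 3 libraries. After E11.5 the sexes part most in clusters C and D, where later XX libraries stay at 71.1 TPM or more and 27.0 TPM or more. In cluster A later XX libraries also lie above the XY libraries of their stage. At E15.5 they are at 3.39 to 6.01 TPM in XX and 0.48 to 0.93 TPM in XY. The sexes lie close together in cluster B, where Hoxb9 holds a mean of 4.13 TPM in XY cells at E15.5.

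By position, paralog groups 4 to 8 held most of the Hox RNA in XX cells at every stage, with 74.6% ± 3.4 (SD, n = 3) of the summed member TPM at E11.5 and 74.5% ± 0.91 at E15.5. In XY cells their share was 76.2% ± 2.6 at E11.5 and 41.9% ± 3.7 at E15.5, while paralog groups 9 to 13 went from 16.7% ± 2.5 to 55.9% ± 3.5. Hoxb9 made up 4.13 TPM of a mean of 7.32 TPM for groups 9 to 13 in XY cells at E15.5. Paralog groups 1 to 3 held 5.80% ± 3.2 in XX cells and 7.07% ± 0.41 in XY cells at E11.5, and 1.15% ± 0.39 and 2.24% ± 0.47 at E15.5. The 8 members below the test's filter were Hoxb1 and 7 genes of paralog groups 11 to 13 (Hoxa13, Hoxb13, Hoxc11, Hoxc12, Hoxc13, Hoxd12 and Hoxd13), the posterior end of each cluster.

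The most abundant members of paralog groups 1, 2 and 3 were Hoxd1, Hoxb2 and Hoxa3. Hoxd1, a patterning factor of the anterior end, was at most 0.71 TPM in any library, and Hoxd12, the most abundant of paralog group 12, at most 0.29 TPM. Hoxb2 and Hoxa3, known for hindbrain and neck patterning, were at 7.59, 1.69 and 13.4 TPM and at 2.07, 0.71 and 2.60 TPM in XX E11.5 libraries and below 1.5 TPM in every later XX library. Their range over the 3 XX E11.5 libraries was wide, and the high and low libraries were again replicates 3 and 2.

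At E11.5 few Hox genes differed between the sexes. Of the 30 tested members 8 were called, 26.7% of them, where 42.0% of all genes were called. Higher in XY cells were 7 (Hoxa5, Hoxa7, Hoxb6, Hoxb9, Hoxc5, Hoxd3 and Hoxd4) and higher in XX cells was Hoxc4. The median log2 difference, XX minus XY, was -0.57 over the tested members and 0.02 over all genes. This count rested on single libraries and on the fit: it was 14 without XX E11.5 replicate 3, 5 without XY E11.5 replicate 3 and 1 when only the 6 E11.5 libraries entered the fit.

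Hoxa7, a mid-cluster gene known for vertebral patterning, was at 14.2, 9.04 and 21.4 TPM in XX and at 22.9, 34.5 and 38.7 TPM in XY E11.5 libraries. The highest XX library lay below the lowest XY library, and the log2 difference was -0.87 ± 0.26 (SE; edgeR adjusted p = 0.0099). Hoxa5, known for lung and neck development, was at 7.0, 4.01 and 8.30 TPM in XX and at 11.2, 12.2 and 17.9 TPM in XY, without overlap, and differed by -1.03 ± 0.30 (edgeR adjusted p = 0.0082). Hoxb6, expressed widely in posterior mesoderm, was at 3.66, 3.06 and 5.28 TPM in XX and at 6.78, 12.4 and 12 TPM in XY, also without overlap, and differed by -1.25 ± 0.36 (edgeR adjusted p = 0.0084). Hoxc4, the 3′-most gene of cluster C, was the exception among called genes with 24.7, 21.7 and 19.9 TPM in XX and 12.7, 15.7 and 21.3 TPM in XY. The TPM ranges of the 2 groups overlapped for Hoxc4, whose log2 difference was 0.50 ± 0.16 (edgeR adjusted p = 0.013).

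From E12.5 on Hox genes were mostly higher in XX cells. At E12.5 20 of the 30 tested members were called, 19 higher in XX and 1, Hoxb9, higher in XY, where 62.1% of all genes were called, 30.5% with more RNA in XX cells and 31.5% with more in XY cells. At E13.5 23 were called, 22 higher in XX and Hoxb9 higher in XY, where 66.1% of all genes were called, 32.8% with more RNA in XX cells and 33.3% with more in XY cells. At E15.5 22 were called, 21 higher in XX and Hoxb9 higher in XY, where 69.4% of all genes were called, 34.9% with more RNA in XX cells and 34.4% with more in XY cells. So the share of members called in either direction was near that of all genes, and the direction was not evenly split. The median log2 difference was 2.30, 2.61 and 2.75 at the 3 stages over the tested members, against -0.01, 0.01 and 0.05 over all genes. These medians were also taken with uncertain genes restricted. Genes of 3 or fewer counts in every library of the lower group only were set to the bound that 3 counts give. Other genes with an SE of 2 or more, or without a usable SE, were set to no difference. The medians were then 1.38, 2.01 and 2.14. The E12.5 count was 13 in a limma fit of log2(TPM + 1). At E15.5 the 6 surface epithelium markers summed to 497 to 577 TPM in XX and 113 to 120 TPM in XY libraries. The 8 immune markers summed to 39.9 to 51.6 TPM in XX and 0.30 to 0.74 TPM in XY libraries. Sums of mesonephric and of endothelial markers overlapped between the sexes at that stage. At E12.5 and E13.5 both were higher in XX libraries, without overlap. The mesonephric sum at E12.5 was 691 to 765 TPM in XX and 440 to 509 TPM in XY libraries. The endothelial sum at E12.5 was 13.7 to 19.9 TPM in XX and 8.11 to 8.68 TPM in XY libraries. Sums of steroidogenic, erythroid, stromal and germ cell markers were also higher in XX libraries at E15.5, without overlap. The part of other cell types in the sex difference was not tested.

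Of the 30 tested members 16 were called higher in XX at all 3 later stages, a pattern held by 18.0% of all genes. They were the 6 tested members of cluster C, Hoxb2, Hoxb4, Hoxb5, Hoxb6 and Hoxb7 of cluster B, Hoxd3, Hoxd8 and Hoxd9 of cluster D, and Hoxa3 and Hoxa10 of cluster A. Called higher in XY at E11.5 and higher in XX at any later stage were 6 members (Hoxa5, Hoxa7, Hoxb6, Hoxc5, Hoxd3 and Hoxd4), where 4.35% of all genes were so called. That count rests on the E11.5 calls, whose number moved with single libraries and with the fit, as given above. For Hoxd4 the TPM ranges of the sexes overlapped at E11.5. The median log2 difference at E15.5 was 2.03 in cluster A, 2.31 in cluster B, 4.16 in cluster C and 3.12 in cluster D. With uncertain genes set to their bound or to no difference, as above, the medians were 1.02, 0.49, 4.16 and 3.12.

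**Figure D3:**
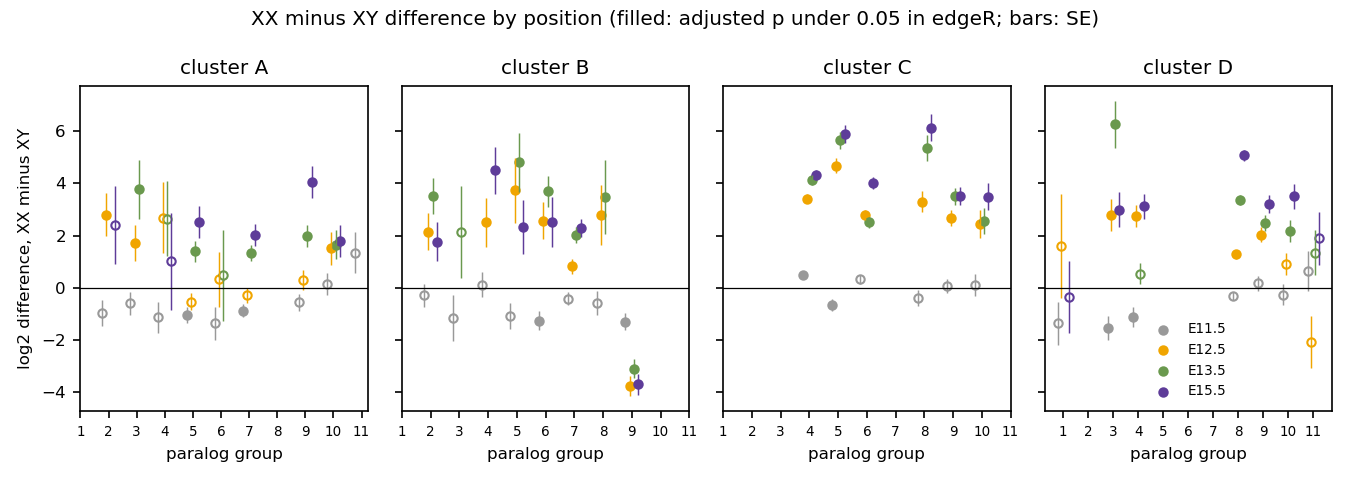
Log2 difference, XX minus XY, of each tested Hox member against its paralog group, with 1 panel per cluster and 1 colour per stage; filled points had an adjusted p under 0.05 in edgeR and bars are SE. Comparisons in which a group had no count or an SE of 2 or more are left out. E11.5 points lie between -2 and 2, later points of cluster C all lie above 2, and Hoxb9 lies below -3 at the 3 later stages.

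Cluster C held the highest levels. Hoxc6, a mid-cluster gene known for thoracic patterning, had the highest mean of any member in XX cells at each stage but E13.5, where Hoxc4 led, and in XY cells at E11.5, where its range overlapped that of Hoxa7. It was at 42.2, 35.5 and 49.5 TPM in XX and 24.5, 40.5 and 42.4 TPM in XY libraries at E11.5. At E15.5 it was at 26.1, 27.0 and 20.9 TPM in XX and at 1.76, 1.97 and 1.35 TPM in XY, and the groups no longer overlapped. The log2 difference was 0.34 ± 0.18 at E11.5 (edgeR adjusted p = 0.13) and 4.0 ± 0.22 at E15.5 (edgeR adjusted p = 1.7e-12), a 16-fold difference.

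Hoxc4 was at 25.4, 23.9 and 28.1 TPM in XX and at 2.71, 1.95 and 1.63 TPM in XY libraries at E12.5, and at 20.7, 22.0 and 21.9 TPM in XX and 0.90, 1.21 and 1.26 TPM in XY at E15.5. Every XX library was above every XY library at both stages, with log2 differences of 3.42 ± 0.18 (edgeR adjusted p = 8.1e-13) and 4.32 ± 0.20 (edgeR adjusted p = 7.2e-14). In XX cells its change from E11.5 to E15.5 was 0.10 ± 0.16 on the log2 scale (edgeR adjusted p = 0.61). Its mean in XX cells was second to that of Hoxc6 or above it, and the ranges of these genes overlapped at E15.5 only.

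Hoxc5, which lies between Hoxc6 and Hoxc4 in gene order, was at 10.5, 11.7 and 9.94 TPM in XX and at 0.09, 0.12 and 0.13 TPM in XY at E15.5, a 59.7-fold difference (log2 5.90 ± 0.34; edgeR adjusted p = 2.9e-12). Hoxc8, known for thoracic and motor neuron patterning, was at 8.45, 11.6 and 12.2 TPM in XX and at 0.18, 0.28 and 0.05 TPM in XY at E15.5, a 69.8-fold difference (log2 6.12 ± 0.51; edgeR adjusted p = 9.9e-10). These 2 genes had the largest fitted differences between the sexes at that stage among tested members. Hoxc9, a regulator of thoracic motor neuron identity, was at 5.18, 5.28 and 4.19 TPM in XX and at 0.41, 0.36 and 0.55 TPM in XY, with a log2 difference of 3.52 ± 0.34 (edgeR adjusted p = 1.0e-08).

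Of the 7 tested members of cluster D, Hoxd8 and Hoxd10 rose in XX cells from E11.5 to E15.5 and 5 were not called, where 28.3% of all genes rose. Within that window Hoxd8 and Hoxd11 fell from E11.5 to E12.5 and Hoxd4 fell from E12.5 to E13.5. Hoxd8 was at 10.3, 8.09 and 9.08 TPM in XX and 12.4, 11 and 15.1 TPM in XY libraries at E11.5, and at 13, 14.8 and 18.3 TPM in XX and 0.78, 0.68 and 0.28 TPM in XY at E15.5. Its log2 difference between the sexes went from -0.31 ± 0.16 (edgeR adjusted p = 0.12) to 5.08 ± 0.21 (edgeR adjusted p = 1.6e-14), a 33.9-fold difference at E15.5. Hoxd10, a posterior gene known for lumbar and limb patterning, was at 1.41, 3.16 and 4.34 TPM in XX at E11.5 and at 9.74, 10.6 and 10.2 TPM at E15.5, with every later-stage library at E13.5 and E15.5 above the E11.5 libraries. It rose by 1.90 ± 0.42 on the log2 scale in XX cells (edgeR adjusted p = 0.00058), while in XY cells it was at 1.69, 2.30 and 7.51 TPM at E11.5 and at 0.66, 1.14 and 1.02 TPM at E15.5, a change of -1.85 ± 0.46 (edgeR adjusted p = 0.0016). Among the XY E11.5 libraries replicate 3 was the high one for this gene. Hoxd9, a gene of limb and lumbar patterning, was at 7.26, 8.93 and 9.38 TPM in XX and at 1.20, 0.92 and 0.70 TPM in XY at E15.5 (log2 difference 3.21 ± 0.34; edgeR adjusted p = 4.0e-08).

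Hoxd4, which shares exons with Hoxd3, was at 3.26, 7.26 and 16.5 TPM in XY E11.5 libraries and at 3.77, 3.78 and 4.35 TPM in XX E11.5 libraries. It was at 3.52, 7.15 and 7.39 TPM in XX at E12.5 and at 2.05, 2.01 and 1.57 TPM at E13.5, without overlap, and fell by 1.48 ± 0.39 on the log2 scale (edgeR adjusted p = 0.0063). At E13.5 the XX minus XY log2 difference of Hoxd4 was 0.55 ± 0.41 (edgeR adjusted p = 0.25), and at E15.5 it was 3.12 ± 0.48 (edgeR adjusted p = 5.6e-06).

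**Figure D4:**
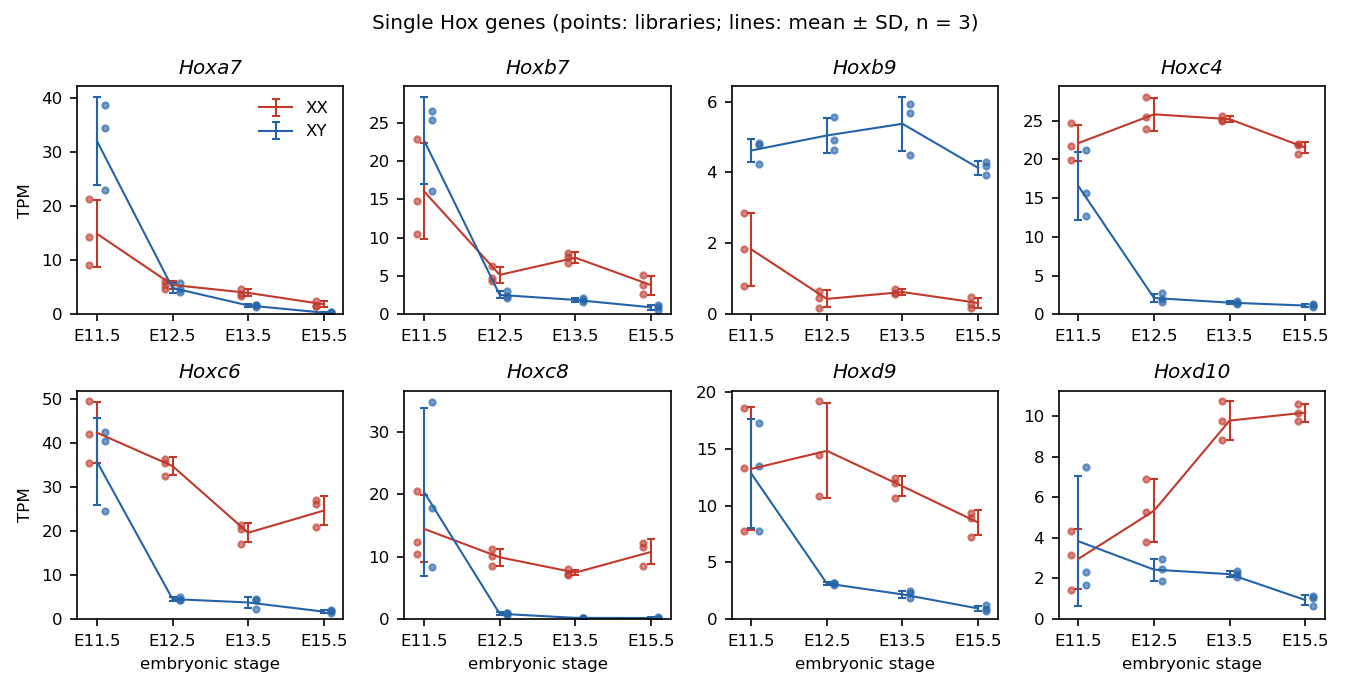
TPM of 8 Hox genes by stage in XX cells (red) and XY cells (blue), with points for single libraries and lines for mean ± SD of 3 libraries; each panel has its own axis from 0. Hoxa7 and Hoxb7 end low in both sexes, Hoxc4, Hoxc6, Hoxc8 and Hoxd9 are higher in XX cells from E12.5 on, Hoxd10 climbs in XX cells to about 10 TPM, and Hoxb9 is high in XY cells.

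Hoxb9 was the member that ran against the others. This gene at the posterior part of cluster B, known for thoracic patterning, was at 4.24, 4.78 and 4.84 TPM in XY libraries at E11.5, 4.93, 5.57 and 4.63 TPM at E12.5, 5.94, 4.50 and 5.68 TPM at E13.5 and 4.29, 3.92 and 4.18 TPM at E15.5. In XX libraries it was at 1.83, 0.81 and 2.85 TPM at E11.5 and at 0.18 to 0.71 TPM in the 9 later libraries. Every XY library was above every XX library at each stage. The XX minus XY log2 difference was -1.30 ± 0.33 at E11.5 (edgeR adjusted p = 0.0031), -3.75 ± 0.38 at E12.5 (edgeR adjusted p = 2.5e-08), -3.09 ± 0.37 at E13.5 (edgeR adjusted p = 2.5e-07) and -3.68 ± 0.41 at E15.5 (edgeR adjusted p = 6.6e-08). In XY cells its change from E11.5 to E15.5 was -0.01 ± 0.31 (edgeR adjusted p = 0.99), and in XX cells it fell by 2.39 ± 0.42 (edgeR adjusted p = 5.7e-05). The test of any change over the 4 stages gave an adjusted p of 0.51 in XY cells with edgeR. Hoxb9 had the highest mean of all members in XY cells at the 3 later stages, though its range overlapped that of the next gene at the first 2 of them.

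Its neighbours in cluster B did not share this course. Hoxb8, the next gene, was at 2.03, 8.78 and 8.81 TPM in XY at E11.5, at most 0.06 TPM at E12.5 and E13.5, and without a count in the 3 XY E15.5 libraries. Against a floor of 3 counts in the shallowest library, the XY level of Hoxb8 at E15.5 was at least 35.4-fold lower than at E11.5 (edgeR adjusted p = 1.0e-07). Hoxb7 was at 16.1, 25.4 and 26.6 TPM in XY at E11.5 and at 0.93, 0.61 and 1.19 TPM at E15.5. On the other side of Hoxb9 the next gene is Hoxb13, which was at 1.32 TPM in 1 XX E11.5 library, replicate 1, and at most 0.08 TPM in the other 23 libraries. Over the 8 group means, Pearson's r of log2(TPM + 1) between Hoxb9 and the other 25 members with a group mean of at least 1 TPM ran from -0.82 (Hoxd10) to 0.27 (Hoxa6), given as a description of points that share libraries and sex.

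The fall of clusters A and B was seen in both sexes between E11.5 and E12.5. In XX cells 18 of 30 tested members fell and 0 rose, where 34.0% of all genes were called and 17.3% fell. The 18 were 8 of 9 tested members of cluster A, 7 of 8 of cluster B, Hoxc10, Hoxd8 and Hoxd11. In XY cells 27 of 30 fell and 0 rose, where 51.9% of all genes were called and 24.8% fell, and the 3 not called were Hoxb9, Hoxd10 and Hoxd11. The median log2 change in XX cells was -2.15 in cluster A, -3.15 in cluster B, -0.34 in cluster C and -0.16 in cluster D, and over all genes it was 0.01. In XY cells it was -4.47, -6.58, -3.20 and -2.37 in clusters A to D and 0.03 over all genes. Medians were also taken with uncertain genes set to their bound or to no difference. In clusters A to D they were -2.03, -3.15, -0.34 and -0.16 in XX and -2.91, -4.88, -3.20 and -2.23 in XY. The XX count was 10 when only the 6 libraries compared entered the fit, and 9 when XX E11.5 replicate 2, the one with the lowest stromal and erythroid marker sums, stood alone for its group. That last count compares 1 library with 3 and takes its spread from the other groups, so it is not on like terms with the others. What lowered it was not tested. Erythroid markers in XX libraries were lower after E11.5, at 2428 to 5536 TPM at E12.5, and the 8 immune markers summed to 165 to 477 TPM in XX E11.5 libraries and 69.7 to 76.5 TPM at E12.5, and their part in the XX fall was not tested. In XY E11.5 libraries the immune markers summed to 0.30 to 2.55 TPM.

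Hoxa7 was the most abundant member of cluster A. From E11.5 to E12.5 it went from 14.2, 9.04 and 21.4 TPM to 6.10, 5.46 and 4.68 TPM in XX cells, without overlap, a fall by 1.84 ± 0.27 on the log2 scale (edgeR adjusted p = 5.8e-05). In XY cells it went from 22.9, 34.5 and 38.7 TPM to 4.68, 5.82 and 4.06 TPM, and it fell by 2.42 ± 0.27 (edgeR adjusted p = 2.3e-07). At E12.5 the TPM ranges of Hoxa7 overlapped between the sexes, with a log2 difference of -0.28 ± 0.28 (edgeR adjusted p = 0.38), and at E15.5 it was at 1.61, 1.47 and 2.46 TPM in XX and 0.35, 0.47 and 0.05 TPM in XY (log2 difference 2.03 ± 0.41; edgeR adjusted p = 0.00016). Hoxa5 and Hoxa9, the second a regulator of limb and blood cell development, took the same course in XX cells, falling by 2.40 ± 0.33 (edgeR adjusted p = 2.7e-05) and 2.03 ± 0.36 (edgeR adjusted p = 0.00027). Hoxa11, the most abundant member of paralog group 11 and a gene of kidney and uterus development, was at 0.64, 0.15 and 1.21 TPM in XX E11.5 libraries and without a count at E12.5. Its antisense partner Hoxa11os was at 1.61, 0.25 and 1.76 TPM in the same 3 libraries, and the 2 transcripts share exonic bases.

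In cluster B, Hoxb7 was the most abundant member. In XX cells it was at 10.5, 14.7 and 22.9 TPM at E11.5, 6.33, 4.69 and 4.4 TPM at E12.5, 7.49, 6.65 and 8.0 TPM at E13.5 and 3.78, 5.07 and 2.58 TPM at E15.5. Both turns after E12.5 passed the test, a rise of 0.75 ± 0.28 (edgeR adjusted p = 0.045) and a fall by 0.99 ± 0.29 (edgeR adjusted p = 0.016) on the log2 scale. Hoxb6 took the same path in XX cells, with 0.30, 0.47 and 0.46 TPM at E12.5, 1.26, 0.90 and 1.17 TPM at E13.5 and 0.31, 0.16 and 0.19 TPM at E15.5. In XY cells Hoxb2 and Hoxb6 were at 5.98, 9.0 and 13.1 TPM and at 6.78, 12.4 and 12 TPM at E11.5 and at most 0.10 TPM at E12.5. Their groups did not overlap, and the edgeR adjusted p was 1.0e-07 for Hoxb2 and 1.4e-09 for Hoxb6.

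After E12.5 changes were fewer. From E12.5 to E13.5 in XX cells 7 of 30 tested members were called, where 31.7% of all genes were called: Hoxb6, Hoxb7, Hoxd8, Hoxd10 and Hoxd11 rose, and Hoxc6 and Hoxd4 fell. Hoxd8 went from 6.92, 6.03 and 4.37 TPM to 9.89, 10.5 and 13.2 TPM, the clearest of these (log2 change 1.26 ± 0.16; edgeR adjusted p = 1.3e-05). From E13.5 to E15.5 in XX cells 3 were called, where 25.6% of all genes were called, and Hoxa7, Hoxb6 and Hoxb7 fell. These 2 counts moved with the fit, to between 3 and 11 for the first step and between 2 and 10 for the second. In XY cells 5 were called in the first of these steps, where 16.6% of all genes were called and 8.62% fell, and Hoxa5, Hoxa7, Hoxa9, Hoxc8 and Hoxd8 fell. In the second 8 were called, where 21.3% of all genes were called and 9.79% fell, and Hoxa5, Hoxa7, Hoxa9, Hoxb7, Hoxc6, Hoxd4, Hoxd8 and Hoxd9 fell. The summed TPM of 8 germ cell markers was 114 to 180 in XX and 59.8 to 103 in XY libraries at E15.5, above the 19.2 to 33.7 and 14.1 to 20.0 at E13.5, and the part of this in the last step was not tested.

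Over the whole window, from E11.5 to E15.5, 20 of 30 tested members were called in XX cells, where 59.4% of all genes were called, 28.3% rose and 31.1% fell, and Hoxd8 and Hoxd10 rose while 18 fell, all 17 tested members of clusters A and B and Hoxc6. In XY cells 28 fell and 0 rose, where 57.7% of all genes were called, 30.2% rose and 27.5% fell, with Hoxb9 and Hoxd11 not called. The test of any change over the stages called 22 members in XX cells, where 74.0% of all genes were called, and 28 in XY cells, where 70.3% were. In XX cells it called all 17 tested members of clusters A and B, 2 of 6 of cluster C and 3 of 7 of cluster D. A difference between the sexes in the course over stages, the sex-by-stage interaction, was called for 24 of the 30, where 70.1% of all genes were called: 6 of 9 in cluster A, 7 of 8 in cluster B, 6 of 6 in cluster C and 5 of 7 in cluster D.

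Courses of the members were compared over the 8 group means of log2(TPM + 1). Among the 26 members with a group mean of at least 1 TPM, the median Pearson r was 0.94 over 74 pairs within a cluster, 0.94 over 21 pairs of direct neighbours and 0.72 over 251 pairs between clusters. Within single clusters it was 0.95 in A, 0.94 in B, 0.96 in C and 0.80 in D. Across clusters the median was 0.94 for A with B and 0.85 for C with D. It was 0.63 for A with C, 0.67 for A with D, 0.65 for B with C and 0.63 for B with D. The points share libraries, sex and stage, so these values only describe how the clusters pair.

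The TALE cofactors that bind DNA with Hox proteins were followed in 8 genes, all tested. At E12.5 6 of the 8 were higher in XX cells and 0 higher in XY, at E13.5 again 6 and 0, and at E15.5 6 and 1 (Pknox1), where 30.5%, 32.8% and 34.9% of all genes were higher in XX. These stages had a median log2 difference in the 8 genes of 1.51, 1.46 and 1.34 beside -0.01, 0.01 and 0.05 over all genes. At E11.5 4 were called, where 42.0% of all genes were, with Pbx2 higher in XX cells and Meis2, Pknox1 and Pknox2 in XY cells. From E11.5 to E12.5 in XY cells 7 of 8 fell, where 24.8% of all genes fell, Pbx4 being the one not called. From E11.5 to E15.5 in XX cells 6 of 8 fell, where 31.1% of all genes fell, Pbx3 rose and Meis3 was not called.

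Pbx3 was at 13.2, 20.4 and 14.8 TPM in XX and 15.9, 20.4 and 18.2 TPM in XY libraries at E11.5. At E15.5 it was at 44.9, 46.4 and 46.2 TPM in XX and 5.92, 5.36 and 4.05 TPM in XY. The groups overlapped at E11.5 and were far apart at E15.5, with a log2 difference of 3.34 ± 0.17 (edgeR adjusted p = 2.9e-13), and in XX cells Pbx3 rose by 1.61 ± 0.15 from E11.5 to E15.5 (edgeR adjusted p = 2.8e-08). Meis1 was at 108, 118 and 190 TPM in XY libraries at E11.5 and at 20.1, 23.8 and 24.99 TPM at E12.5, a fall by 2.46 ± 0.24 on the log2 scale (edgeR adjusted p = 4.2e-08). Meis2 was at 37.2, 52.5 and 73.9 TPM in XY at E11.5 and at 3.51, 6.19 and 4.44 TPM at E12.5, and in XX cells it fell too, from 22.6, 10 and 41.3 TPM to 6.47, 6.53 and 10.02 TPM.

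**Figure D5:**
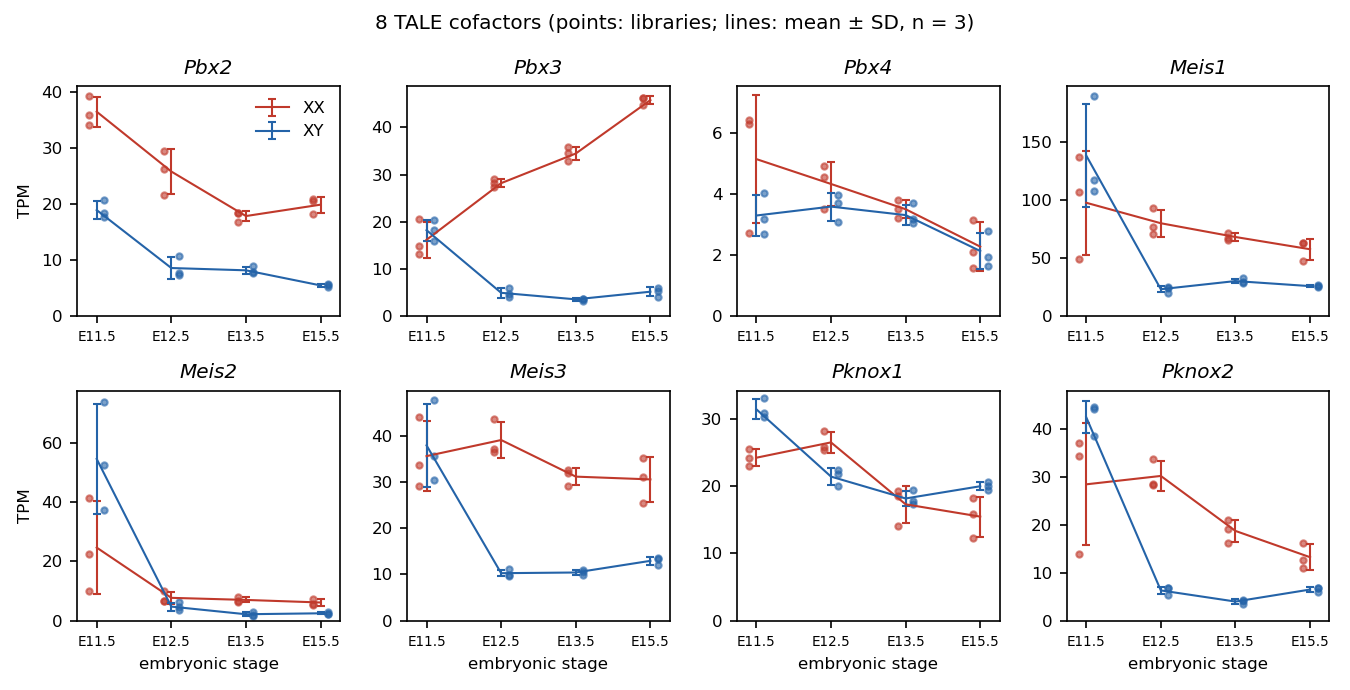
TPM of 8 TALE cofactor genes by stage in XX cells (red) and XY cells (blue), with points for single libraries and lines for mean ± SD of 3 libraries; each panel has its own axis from 0. XY levels of Pbx2, Pbx3 and the Meis genes drop after E11.5, XX levels of Pbx3 climb to about 46 TPM, and Pbx4 and Pknox1 lie close in the sexes at E13.5.

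Genes known to act on Hox clusters were taken as a list of 11, of which 8 were tested. At E15.5 6 of the 8 were called between the sexes, where 69.4% of all genes were called, so this count was near the background. Higher in XX were 4 (Kmt2a, Gdf11, Cyp26a1 and Rarb), and higher in XY were Men1 and Gmnn. Rarb, a retinoic acid receptor that is itself a target of retinoic acid, was at 6.36, 7.13 and 16.8 TPM in XY at E11.5 and at most 0.29 TPM in the 9 later XY libraries. In XX cells Rarb was at 10.8, 2.47 and 8.29 TPM at E11.5 and at 0.64 to 2.28 TPM later. Gdf11, a secreted ligand that sets the position of the trunk-to-tail transition, was at 10.6, 10.5 and 13.6 TPM in XX and at 0.94, 1.0 and 0.95 TPM in XY at E15.5, a log2 difference of 3.65 ± 0.22 (edgeR adjusted p = 4.1e-12). Cyp26a1, which breaks down retinoic acid, was at 8.57, 7.54 and 6.81 TPM in XY and at 0.77, 0.11 and 0.29 TPM in XX at E11.5 (log2 difference -4.07 ± 0.47; edgeR adjusted p = 1.2e-06). The 3 not tested were Cdx1, Cdx2 and Cdx4, the caudal factors, at most 0.44 TPM in any library apart from Cdx2 at 15.4 TPM in XX E11.5 replicate 1.

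Non-coding transcripts of the clusters were listed by 20 names, of which 13 were in the tables and 4 had enough counts. Hotairm1, transcribed from the anterior end of cluster A, was at 8.86, 5.04 and 7.64 TPM in XX and 6.97, 4.98 and 10.3 TPM in XY at E11.5 and at most 1.15 TPM in later XY libraries. It fell from E11.5 to E12.5 by 1.97 ± 0.54 in XX (edgeR adjusted p = 0.0077) and by 3.05 ± 0.59 in XY (edgeR adjusted p = 0.00016). All 4 fell in XY cells over that step (Hotairm1, Hoxaas2, Hoxaas3 and Hoxb5os), where 24.8% of all genes fell. Hoxb5os differed at E11.5, at 0.50, 0.13 and 0.39 TPM in XX and 1.96, 3.15 and 4.62 TPM in XY (log2 difference -3.18 ± 0.60; edgeR adjusted p = 0.00031).

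Of 22 listed genes that flank the clusters, 20 were in the tables and 16 were tested. From E11.5 to E12.5 in XX cells 9 of the 16 fell and 0 rose, where 17.3% of all genes fell, with a median log2 change of -0.46 beside 0.01 over all genes. Over the same step in XY cells 6 rose and 4 fell, where 27.1% of all genes rose and 24.8% fell, with a median of 0.10 beside 0.03. Hibadh and Tax1bp1, near cluster A, and Mtx2, near cluster D, were at 98.6 TPM or more in every library. Nfe2, a blood-lineage factor gene beside cluster C, was at 11.2, 14.4 and 11.4 TPM in XY at E11.5 and at 50.8, 37.3 and 33.3 TPM at E12.5, a rise of 1.97 ± 0.27 on the log2 scale (edgeR adjusted p = 3.4e-06) while the members of cluster C fell. Chn1, beyond cluster D, fell in XY cells over the same step by 1.96 ± 0.22 (edgeR adjusted p = 2.5e-07), from 7.58, 8.06 and 11.1 TPM to 2.25, 1.67 and 1.43 TPM.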

How the data were processed

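RNA of 24 sorted-cell libraries was amplified and sequenced, per the labels' protocols. The deposited estimated counts per gene and the deposited TPM values were made by the authors; the submitters' processing notes name build mm10, and aligner, counter and use of strand are not given in the sources used here. Of the estimated counts, 17.5% were not whole and were rounded. TPM columns summed to 938740 to 961696.

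These counts went into the quasi-likelihood test of edgeR 4.0.16 under R 4.3.3 (TMM, filterByExpr, robust quasi-likelihood, 8 group means, 16 residual degrees of freedom, Benjamini-Hochberg over 16190 genes), checked on simulated data. Alternatives used DESeq2 1.42.0, limma 3.58.1 with pseudocounts of 1 and 0.1 TPM, other filters, a replicate block and left-out libraries. The members and lists were chosen with earlier results of these data known, and 3 alternatives were added after seeing the data. Full statistics are given for up to 4 members per contrast that were called, reached 5 TPM and did not overlap in counts per 1e6, by size of change, and for the most abundant member of each cluster and paralog group. XX E13.5 replicate 1 has E12.5 in 1 label field and was kept at E13.5 by its title. Positions are from GENCODE M21. One gene of the cofactor list is not reported here.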

Additional observations from a re-analysis of the deposited data

Results flagged for a closer look

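The XX minus XY difference changed over the 4 stages for 24 of 30 tested members, where 70.1% of all genes were so called by edgeR. In cluster A the edgeR adjusted p of the sex-by-stage interaction was 0.000271 for Hoxa2, 0.00115 for Hoxa3, 0.0214 for Hoxa4, 7.31e-05 for Hoxa5, 2.69e-05 for Hoxa7 and 2.82e-05 for Hoxa9. In cluster B it was 0.00211 for Hoxb2, 0.000232 for Hoxb4, 0.000233 for Hoxb5, 7.14e-06 for Hoxb6, 2.49e-05 for Hoxb7, 0.0104 for Hoxb8 and 0.000459 for Hoxb9. The cluster C values were 8.45e-11 for Hoxc4, 2.41e-11 for Hoxc5, 5.30e-09 for Hoxc6, 2.66e-08 for Hoxc8, 7.63e-07 for Hoxc9 and 0.00074 for Hoxc10. The cluster D values were 2.40e-06 for Hoxd3, 4.39e-06 for Hoxd4, 4.45e-12 for Hoxd8, 2.03e-05 for Hoxd9 and 0.000122 for Hoxd10. The smallest p was that of Hoxd8, whose log2 difference went from -0.31 at E11.5 to 5.08 at E15.5. Hoxb9 was the one among them that ended higher in XY cells, at a log2 difference of -3.68.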

How the results depend on the processing

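Of 15 counts of called Hox genes, those at the 2 last stages between the sexes, the XY fall after E11.5, both E11.5 to E15.5 comparisons and the 3 tests over all stages stayed within 1.5 times their value under every setting run. The sex difference at E11.5 (8) was 14 in limma on log2(TPM + 1) with all genes above 0, 1 with only the libraries compared and 15 with XX E11.5 replicate 2 alone, and ran from 5 (without XY E11.5 replicate 3) to 14 (without XX E11.5 replicate 3). That at E12.5 (20) was 13 in limma on log2(TPM + 1) under both filters. The XX step from E11.5 to E12.5 (18) was 10 with only the libraries compared and 9 with XX E11.5 replicate 2 alone. The next XX step (7) was 4 with no filter and in 3 limma settings, 11 with only the libraries compared and with no E11.5 libraries, and 3 to 10 leaving out 1 library. The last XX step (3) was 8, 10 and 7 with only the libraries compared, no E11.5 libraries and XX E11.5 replicate 2 alone, and 2 to 6 leaving out 1 library. The XY steps after E12.5 (5 and 8) were 2 and 3 in limma on log2(TPM + 1), under both filters; the first was 3 with a pseudocount of 0.1 and 3 to 6 leaving out 1 library. The cause of these moves was not tested.

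Same-numbered libraries correlated at -0.11 to 0.298 over 36 pairs. Between XX and XY at E11.5 the same-numbered values were 0.110, 0.0871 and 0.298. Libraries of different number ran from -0.270 to 0.138 there. Deviations within a group cancel out, so these values are not independent of the same-numbered ones. With so few pairs, these values cannot decide whether replicate numbers pair the E11.5 samples. With the replicate block the last XX step gave 5 calls, and the other 14 counts stayed within 1.5 times.

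In CPM, which is not per length, the cluster shares were 24.4% (A, XY E11.5), 3.67% (B, XX E15.5), 27.5% (C, XY E15.5), 34.4% (D, XX E15.5) and 18.0% (D, XY E11.5). Paralog groups 4 to 8 held 70.9% and 72.7% in XX and 72.2% and 34.4% in XY at E11.5 and E15.5. Median r within clusters, between clusters and for neighbours was 0.927, 0.776 and 0.946 on log2(TPM + 0.1), and 0.841, 0.622 and 0.912 with all members above 0. Of 138 values of named genes under 35 settings, 0 reversed, 134 missed the threshold and 4593 kept direction and side. Among tested members of clusters A and B, Hoxa2, Hoxa4, Hoxa11, Hoxb3, Hoxb4, Hoxb5 and Hoxb8 were at 3 counts or fewer in every later XY library. This leaves the size of their differences imprecise.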

Other observations

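Hoxb13, the posterior end of cluster B, was at 1.32, 0 and 0.05 TPM in the 3 XX E11.5 libraries and held 32 counts in replicate 1. Cdx2, a caudal homeobox gene of the posterior gut and tail, was at 15.4, 0 and 0.37 TPM in the same libraries. Replicate 1 also had the highest Sox9 of the XX libraries, at 91.1 TPM against 27.7 and 28.6 TPM in the other XX E11.5 libraries, and the highest Amh, at 8.07 TPM. These genes were singled out after their values were seen, and what they share in that library was not tested.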
